A study of Mus musculus with 2 samples.

Results

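The Notch pathway was read in epiblast stem cells (EpiSC) through 10 genes: the receptors Notch1, Notch2 and Notch3, the ligands Dll1, Dll3, Dll4, Jag1 and Jag2, and the target genes Hes1 and Hes5. These members were taken by gene name from the array's annotation with all their probes kept, which gave 13 of the 39429 probes and 22 of the 43020 spots that were not controls, for 10 of 22753 genes. EpiSC are primed pluripotent cells, close to the postimplantation mouse epiblast. Of these cells, 2 clones were profiled at passage 9 on 1 array each, and both were wildtype, female and of C57BL/6 background. RNA came from trypsin-collected cells, and 0.2 ug of it was labelled with Cy3 as cRNA for a 1-colour Agilent mouse array. With 1 array per clone, no spread between replicates, standard error or p-value between clones can be given, and every difference below compares these 2 arrays only.

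Notch receptors are single-pass membrane proteins that are activated by ligands on a neighbouring cell. Ligand binding lets an ADAM protease and then gamma-secretase cut the receptor, and the freed intracellular domain joins the DNA-binding protein Rbpj and a Mastermind coactivator at target genes. The best known targets are Hes genes, which encode basic helix-loop-helix repressors that hold back proneural genes. In the early mouse embryo the pathway is best known from neural progenitors, from the segmentation clock of the presomitic mesoderm and from vessels.

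The arrays behaved alike. The 75th percentile of all probes lay at a processed signal of 819 for clone 1 and 726 for clone 2, against a negative control median of 7.96 and 7.13, and 57.4% and 57.5% of probes were well above background. Signals below are either the processed intensity of a probe or its log2 value relative to that 75th percentile, and differences are clone 2 minus clone 1 on the latter scale. Among detected probes that were printed 10 times, 265 in clone 1 and 269 in clone 2, the SD between spots had a median of 0.07 and 0.08 log2, which gives an SD of 0.11 log2 for a difference between 2 single spots. For dim probes, those below -2 log2, the same SD was 0.17 log2. Both cover the noise of printing, hybridisation and scanning within an array, and none between cultures. All 9 epiblast markers, Pou5f1, Nanog and Sox2 among them, were detected on both arrays. All 10 fibroblast markers, among them Col1a2, Col3a1 and Dcn, were detected too. Signals of different probes depend on the probe as well as on the RNA, so no gene's level is ranked against another's.

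Of the members, 3 had 2 probes each, at different places on the transcript. The upstream probes of Notch1, Notch2 and Dll3 are shown whole, and their downstream partners and the only Dll4 probe by their first 30 of 60 bases, because the results for these genes turn on them. The number in each name is the start of the probe in the transcript, per the deposited annotation, and sequences run 5′ to 3′ in the sense of the mRNA.
Notch1 5898: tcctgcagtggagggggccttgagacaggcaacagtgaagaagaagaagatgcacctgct
Notch1 8221: ttgcttctttccaaaatcgaaaagaaagaa
Notch2 7448: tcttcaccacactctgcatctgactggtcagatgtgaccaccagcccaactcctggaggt
Notch2 10129: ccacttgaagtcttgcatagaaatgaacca
Dll3 1730: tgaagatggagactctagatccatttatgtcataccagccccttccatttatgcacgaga
Dll3 1914: gaaagggctttattgtacatattgcttatt
Dll4 2827: tttgcccagactccatcctcacagctgggc

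In mm9 the Notch1 probes lie at chr2:26319440-26319499 and chr2:26314630-26314689 on the minus strand. Those of Notch2 lie at chr3:97951233-97951292 and chr3:97953914-97953973 on the plus strand. Those of Dll3 lie at chr7:29079061-29079120 and chr7:29078763-29078822 on the minus strand, and that of Dll4 at chr2:119160779-119160838 on the plus strand. Each was designed on the RefSeq mRNA of its gene, and which of them lie in coding sequence and which in a UTR was not analysed here. The upstream probes of Notch1 and Notch2 had a GC content of 55.0% each and their downstream partners 40.0% and 41.7%.

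Of the 10 members, 9 were well above background on both arrays, beside 61.3% of all genes. Dll4 was the exception, detected in clone 1 only. None of the 9 members measured on both arrays was 2-fold apart, beside 2.56% of all measured genes in either direction and 1.04% higher in clone 1. At 1.5-fold, a threshold added after the values were seen, 3 of the 9 were apart, Jag2 and Hes1 with the higher signal in clone 2 and Dll3 in clone 1, beside 9.08% of all measured genes in either direction, 5.76% higher in clone 2 and 3.32% higher in clone 1. The median difference of the 9 was 0.39 log2 and 8 of them were higher in clone 2, beside a median of 0.05 log2 and 56.9% of all measured genes. With normexp background correction the difference of Notch2 was -0.0045 log2, so 7 of the 8 kept their direction under every alternative run.

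**Figure D1:**
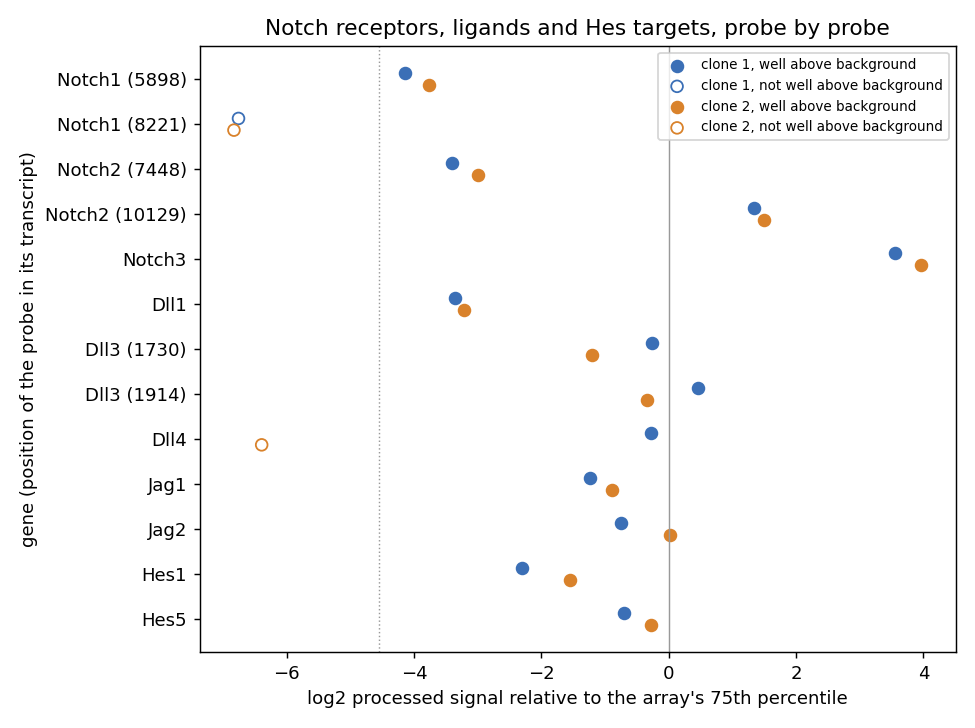
Log2 processed signal of each member probe relative to the 75th percentile of its array (x axis) for clone 1 and clone 2, with filled points well above background, open points not, and a dotted line at the lowest signal of any detected probe (-4.55); only points within a row can be compared. The points of a row lie close together except for Dll4, which is at -0.27 in clone 1 and -6.39 in clone 2, and the Notch1 probe at 8221 is open on both arrays.

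Among the receptors, Notch3, which in adults is best known from vascular smooth muscle, had processed signals of 9664 in clone 1 and 11338 in clone 2, a difference of 0.40 log2. Its only probe, at chr17:32257848-32257907 in mm9, stood 1214 and 1591 times above the negative control median. The Notch3 difference was between 0.17 log2 (normexp correction) and 0.41 log2 (outlier spots kept) over the alternatives. A shift of this size or larger in the same direction was found in 11.6% of all measured genes.

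Notch2, a receptor that many tissues express, was read at very different strength by its probes. The downstream probe at 10129 gave 2064 in clone 1 and 2039 in clone 2, and the upstream probe at 7448 gave 77.2 and 91.2. The probes start 2681 bases apart, and their signals were 4.74 log2 apart in clone 1 and 4.48 log2 apart in clone 2. Both nevertheless gave small differences between clones, 0.16 log2 downstream and 0.41 log2 upstream.

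Notch1, the receptor required in the embryo for somite formation and for vessels, was detected by 1 of its 2 probes. The upstream probe at 5898 had 46.2 in clone 1 and 53.6 in clone 2, well above background on both arrays but only 5.80 and 7.52 times the negative control median. The downstream probe at 8221 had 7.56 and 6.38, at or below the negative controls on both arrays. The probes, which start 2323 bases apart, gave different detection calls. The difference of 0.39 log2 at the upstream probe was 0.74 log2 with normexp correction and 0.16 log2 as the mean of both probes. By the software's error model the upstream signal carried an error of 19.5% in clone 1 and 15.6% in clone 2. It touches a spot 2-fold higher in clone 2, and without it Notch1 had no measured probe.

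Among the ligands, Dll3 stood out as the one measured member with a lower scaled signal in clone 2. Dll3 is a divergent ligand that inhibits Notch signalling within the cell and is needed for segmentation. Its downstream probe had 1121 in clone 1 and 574 in clone 2, and its upstream probe had 686 and 314. Both probes were clearly higher in clone 1, by 1.73-fold (-0.79 log2) and 1.94-fold (-0.95 log2), and no alternative brought the gene nearer to 0 than -0.75 log2.

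The differences of the Dll3 probes lie a little closer together than those of the median pair. They start 184 bases apart and sit in distant places on the array. Over 2945 genes with 2 probes measured on both arrays, the median gap between the differences of the 2 probes was 0.21 log2, and for Dll3 it was 0.16 log2. Both probes lay at least 1.5-fold apart in the same direction in 67 of these genes (2.28%). In 387 of them at least 1 probe was 1.5-fold apart. Of the touching spots of the upstream probe, 1 was 2-fold higher in clone 1, and of those of the downstream probe none was. A difference of this size or larger in the direction of clone 1 was found in 1.79% of all measured genes.

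Dll1, a ligand known from the segmentation clock and from neural progenitors, was printed 10 times and so shows the spread within each array. Its spots in clone 1 ran from 54.9 through a median of 84.0 to 93.2, with a mean of 80.5 ± 11.1 (SD over 10 spots of 1 array). In clone 2 they ran from 66.8 through a median of 78.7 to 88.1, with a mean of 78.3 ± 6.64 (SD over 10 spots of 1 array). Before scaling, the spots of the arrays overlap almost fully, and 1 spot of clone 1 lies far below the next lowest at 69.2. The unscaled mean was higher in clone 1. After scaling, the difference of the means over 10 spots was 0.14 log2 toward clone 2. The SD between single spots, which is not that of such a mean, was 0.22 log2 in clone 1 and 0.12 log2 in clone 2. With normexp correction the difference was 0.51 log2.

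**Figure D2:**
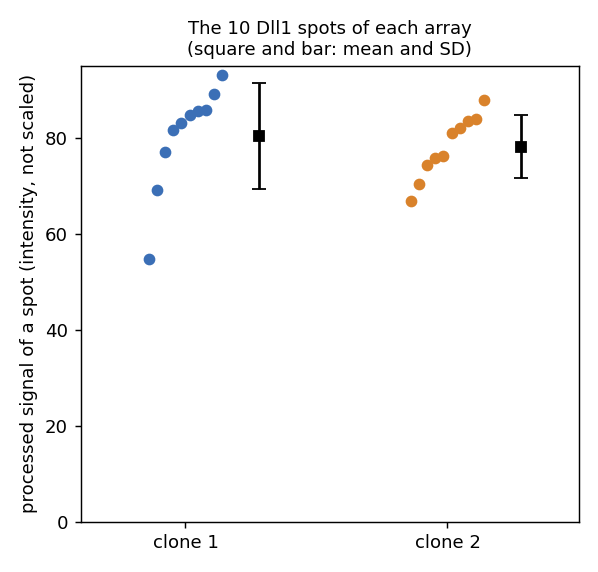
Processed signal (intensity, not scaled) of the 10 Dll1 spots on the array of each clone, ordered by signal, with a square at the mean and a bar for 1 SD. The spots of clone 1 run from 54.9 to 93.2 and those of clone 2 from 66.8 to 88.1, so the ranges overlap.

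The Jagged ligands Jag1 and Jag2 were both higher in clone 2. Jag2, known from limb and thymus development, had 486 in clone 1 and 736 in clone 2, a 1.71-fold difference (0.77 log2) that stayed between 0.63 and 0.82 log2 over the alternatives. No spot touching that of Jag2 was 2-fold apart in either direction, and 3.03% of all measured genes were as far toward clone 2. Jag1, which in people is mutated in Alagille syndrome, had 349 and 390, a difference of 0.33 log2. The probes lie at chr12:114146887-114146946 for Jag2 and chr2:136907433-136907492 for Jag1 in mm9, both on the minus strand.

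Dll4, the ligand of arterial and sprouting endothelium, was the only member seen in 1 clone alone, beside 2.32% of all genes, while 2.58% were seen in clone 2 alone. Its single spot had a processed signal of 678 in clone 1 and 8.63 in clone 2, where it was not well above background. The software's less strict flag for a positive and significant signal was set on both arrays. Against the lowest signal of a detected probe in clone 2 (-4.55 log2), Dll4 was at least 19.4-fold higher in clone 1. Here the fold is the signal in clone 1 over the higher of that lowest signal and the spot's own. With normexp correction the bound was at least 4.27-fold.

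The spots around that of Dll4 moved with it. Of the 8 spots that touch it, all detected on at least 1 array, 7 were lower in clone 2, and their median difference was -0.77 log2. Among them, 4932429P05Rik had 425 in clone 1 and 6.63 in clone 2, at least 12.2-fold higher in clone 1. A probe for the transcript ENSMUST00000109284 had 319 and 6.62, at least 9.13-fold higher in clone 1. Pcgf2, a Polycomb gene, had 767 and 361. These genes were chosen after their values were seen. At 2 or 3 positions away, 24 detected spots had a median of 0.13 log2, and 1 of them, a probe for ENSMUST00000021816 in the same column 3 rows away, was at least 3.71-fold higher in clone 1.

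Having 2 or more touching spots that are 2-fold higher in clone 1, as Dll4 has, was found at 2.16% of the 25871 spots detected on either array. The Dll4 spot itself was uneven in clone 1, with a mean pixel of 800 and a median pixel of 718, and an SD of pixels of 23.2% of the mean. That share was between 9.79% and 18.9% at the other single-spot member probes. The software flagged the Dll4 spot as an outlier on neither array. The local background was 44.0 in clone 1 and 44.5 in clone 2. Without spots that have such a neighbour no Dll4 value remains, so the Dll4 difference rests on this 1 spot. The part of the neighbouring spots in it was not tested.

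**Figure D3:**
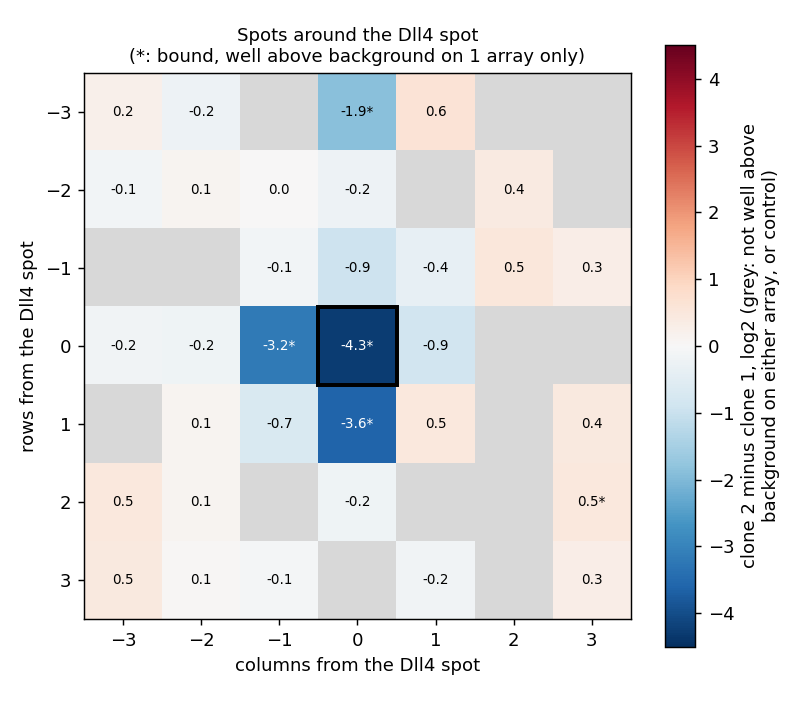
Difference between clones (clone 2 minus clone 1, log2) of the spots up to 3 rows and 3 columns from the Dll4 spot, which is outlined; grey positions are controls or not well above background on either array. A star marks a bound, for spots well above background on 1 array only. The Dll4 spot, bounded at -4.3, touches spots bounded at -3.6 and -3.2, while the spots 2 or 3 positions away have a median of 0.13, with 1 of them bounded at -1.9.

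Endothelial markers were read beside Dll4. Of 6 endothelial markers, Cdh5, Tie1, Tek and Emcn were not well above background on either array. Pecam1 (-3.52 log2 in clone 1 and -2.82 in clone 2) and the VEGF receptor Kdr (1.07 and 1.85) were detected on both and were higher in clone 2. The summed scaled signal of the list was 2.24 in clone 1 and 3.79 in clone 2, in units of the 75th percentile, and its part in the Dll4 value was not tested.

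Both target genes had more signal in clone 2. Hes1, a repressor that oscillates in embryonic stem cells and progenitors, had 166 in clone 1 and 248 in clone 2, a 1.68-fold difference (0.75 log2). Over the alternatives it lay between 0.68 and 0.82 log2. Its probe at chr16:30067820-30067879 in mm9 has 26.7% GC, and 3.25% of all measured genes were as far toward clone 2. Hes5, the target most closely tied to Notch in neural progenitors, had 505 and 597, a difference of 0.41 log2 at chr4:154336347-154336406.

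**Figure D4:**
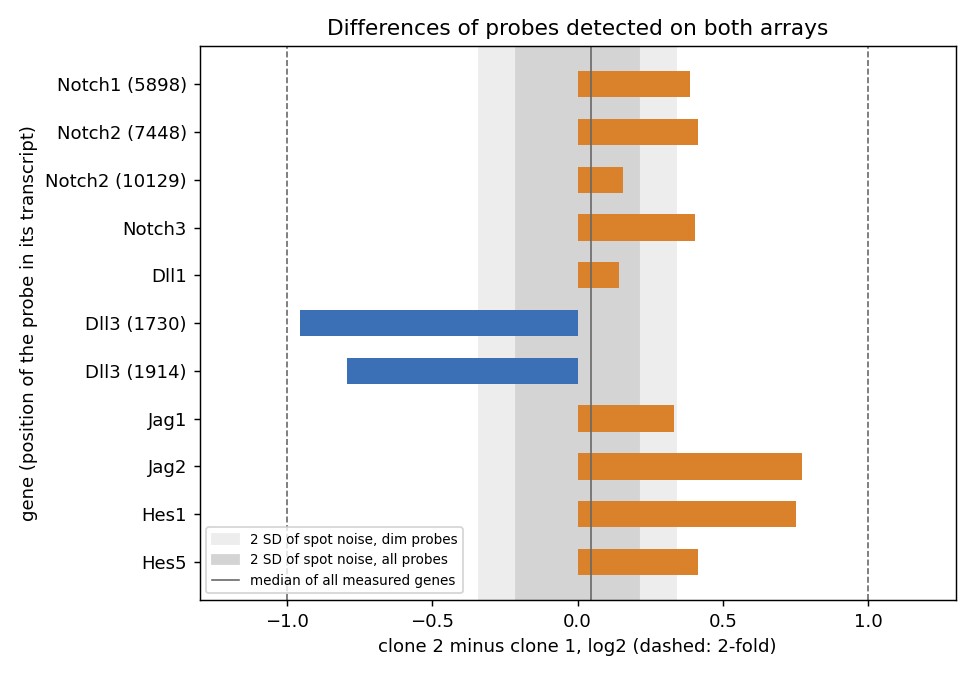
Difference between clones (clone 2 minus clone 1, log2) of each member probe detected on both arrays. The number in brackets is the probe's start in its transcript. Bands show 2 SD of the noise of a difference between single spots, from detected probes of the array printed 10 times. The dark grey band is for all of these (0.21 log2 on either side of 0) and the light one for the dim ones (0.34 log2). Dashed lines are at 2-fold and a line is at the median of all measured genes (0.05). The Dll1 bar compares means over 10 spots, while the bands are for single spots. Both Dll3 probes point to clone 1 and all other bars to clone 2, and no bar reaches 2-fold.

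The window of 250 bases before the Hes5 start is given because of the 9 members with a window, which do not include Hes1, only Hes5 held the core motif bound by Rbpj. It is from RefSeq in GRCm38.p6, chr4:154960673-154960922 on the plus strand, with capitals marking TGGGAA or its reverse complement.
Hes5 promoter: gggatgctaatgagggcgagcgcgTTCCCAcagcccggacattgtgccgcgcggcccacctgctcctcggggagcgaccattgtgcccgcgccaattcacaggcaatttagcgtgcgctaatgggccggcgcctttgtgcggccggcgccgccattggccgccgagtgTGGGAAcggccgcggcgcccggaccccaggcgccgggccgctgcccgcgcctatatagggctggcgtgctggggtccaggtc

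The matches begin at -226 and -82 relative to the start, on opposite strands. TGGGAA was searched on both strands in windows from 250 bases before to 50 after each start. Of 32851 windows of all genes, 25.6% held it at least once and 3.79% at least 2 times. RefSeq windows were matched for 9 of the 10 members (10 windows, since Dll1 has 2), and not for Hes1. The N-box CACNAG, which Hes repressors bind, was found in windows of 5 members, Notch1, Notch2, Notch3, Dll1 and Dll4, and in 42.5% of all windows. The E-box CANNTG was found in windows of 4 members, Dll1, Dll3, Jag1 and Hes5, and in 72.3% of all windows. A match is a description of letters and not a bound site.

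Most other genes of the pathway were detected in both clones. Of 62 further pathway genes in 10 lists, 61 had a probe, and 51 were detected on both arrays, 3 in clone 1 only and 7 in neither. None of the 51 was 2-fold apart by its probe with the highest signal, while a weaker Tle1 probe differed by 1.31 log2 and a weaker Cir1 probe by -0.87 log2. Their median difference was 0.09 log2, and 35 were higher in clone 2 and 16 in clone 1, beside 0.05 log2 and 56.9% higher in clone 2 over all measured genes. At 1.5-fold, 4 of the 51 were apart, all higher in clone 2, beside 9.08% of all measured genes in either direction and 5.76% higher in clone 2, so their share is near the background. Those 4 were Dtx1, Nrarp, Furin and Kdm5a.

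**Figure D5:**
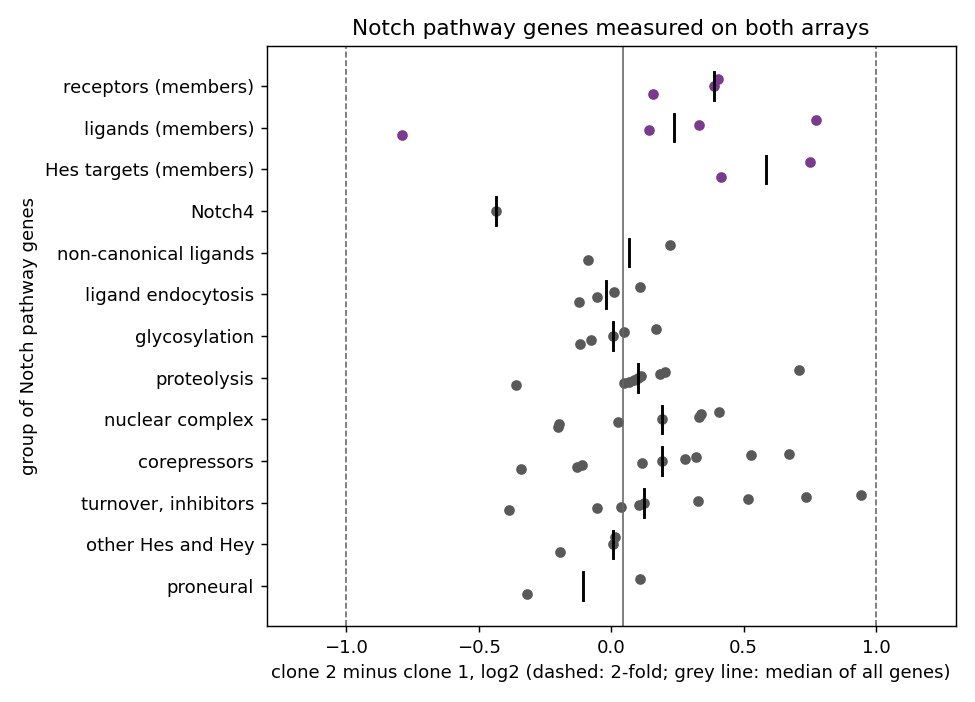
Difference between clones (clone 2 minus clone 1, log2) of each Notch pathway gene measured on both arrays, by group, with the members in purple, a black tick at each group's median, dashed lines at 2-fold and a grey line at the median of all measured genes (0.05). All points lie inside 2-fold, and the widest spreads are among ligands, proteolysis genes and regulators of turnover.

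On the side of receptors and ligands, Notch4, a receptor of endothelium, had -1.84 log2 in clone 1 and -2.27 in clone 2. Of 3 non-canonical ligands, Dlk1 (1.25 and 1.48) and Dlk2 were detected on both arrays, and the second probe of each differed the other way (-0.25 log2 for Dlk1 and 0.23 log2 for Dlk2). All 4 ligases that drive ligand endocytosis were detected, with differences from -0.12 to 0.11 log2, among them Neurl1b (5.14 and 5.09) and Mib2 (1.88 and 1.89). All 5 glycosyltransferases that modify the receptor were detected, with differences from -0.12 to 0.17 log2. Of these, Rfng, a Fringe enzyme, had 2.01 and 2.18, and Pofut1, which adds O-fucose to the receptor, 1.68 and 1.69.

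Of 10 genes for cutting the receptor, all 9 with a probe were detected on both arrays. Psenen, a gamma-secretase subunit, had 3.40 log2 in clone 1 and 3.60 in clone 2. Furin, which cleaves the receptor on its way to the surface, had 1.03 and 1.74, a 1.64-fold difference. The other 8 lay between -0.36 and 0.20 log2, with Adam10, the main activating protease, at the lower end. In the nucleus all 7 genes of the activating complex were detected, with a median difference of 0.19 log2. Rbpj itself had 1.95 and 1.98, and its second probe a difference of -0.02 log2. Snw1, a coactivator that binds Rbpj, had 2.34 and 2.53.

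Corepressors were detected in 9 of 10 cases, and Tle2 was well above background in clone 1 alone, with a bound of at least 1.09-fold. Ctbp1 had 4.46 and 4.78 log2. Kdm5a, a histone demethylase that acts with Rbpj, was 1.59-fold higher in clone 2. Among 9 regulators of receptor turnover and inhibitors, all detected on both arrays, Dtx1, a Deltex ubiquitin ligase, was nearest to 2-fold, with 1.68 and 2.62 (1.92-fold). Dtx2 had 2.22 and 2.54. Nrarp, a feedback inhibitor that is itself a Notch target, had -3.01 and -2.28 (1.67-fold).

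Of 7 other Hes and Hey genes, 3 were measured on both arrays: Hes6 (2.93 and 2.94 log2), an inhibitor of Hes1, Hey1 (0.74 and 0.75), a Notch target of vessels and heart, and Hes7 with a difference of -0.19 log2. Hes2 was detected in clone 1 only, by a bound of at least 1.09-fold. Hey2, Heyl and Hes3 were not well above background on either array.

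The proneural genes given here, which Hes repressors hold back, were near or below the limit of detection. Neurog1 was detected on both arrays, at -3.74 log2 in clone 1 and -3.63 in clone 2. Neurod1 passed in clone 1 alone, with a bound of at least 1.36-fold, and Neurog2 and Neurog3 in neither.

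Markers of other cells in which Notch genes are expressed are given beside these values. The summed scaled signal of the 10 fibroblast markers was 111 in clone 1 and 125 in clone 2, and the median of their differences 0.14 log2. Of 6 presomitic mesoderm markers, Tbx6, Msgn1 and Meox1 were detected on both arrays, while T and Mesp2 were detected in neither, and the summed signal was 0.445 and 0.543. Of 6 neural progenitor markers, Sox1 and Nes were detected on both arrays, and Pax6 and Pax3 in neither, with sums of 22.3 and 21.9. Blood and immune markers were detected on both arrays for 4 of 6 genes, with sums of 2.95 and 4.38. Among them Cd3e, a T cell receptor subunit, had 186 in clone 1 and 900 in clone 2 (5.46-fold), the only one of the list past 2-fold. Csf1r differed by 0.83 log2 (second probe 0.09), Adgre1 by 0.06 log2 (second probe -0.21) and Lyz2 by -0.24 log2. Ptprc was detected in clone 1 only and Cd68 in clone 2 only. The part of these markers in the signals of the Notch genes was not tested. In RNA from whole cultures fewer cells of a type and less RNA per cell cannot be told apart.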

How the data were processed

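Both arrays were on the same slide and scan, so neither separates the clones. Signals are processed intensities that Agilent Feature Extraction 11.0.1.1 (design 026655, protocol GE1_1100_Jul11, mm9 coordinates) had corrected for background and spatial trend and the authors deposited without normalization between arrays, per the file headers; the flags for detection and outliers and the raw spot intensities come from the same files. The authors' deposited table of normalized intensities, made by a method not given in the sources used here, served as an alternative, and its scale between arrays was kept.

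Spots flagged as outliers were left out, log2 signals were averaged per probe, and each array was scaled to its own 75th percentile over all probes. Detection of a probe required the well-above-background flag on at least 50% of its spots. Of 39429 probes, 30180 were matched to RefSeq genes of GRCm38.p6 (26055 by accession, 3195 by symbol and 930 by older symbol), for names only. Each gene is represented by the probe whose mean signal over both arrays was highest. Genes were counted at 2-fold when measured on both arrays. The calculation was run on simulated data with known changes larger than 2-fold in genes measured on both arrays. That run covers neither detection on 1 array nor effects of neighbouring spots. The design has no test, because 1 array per clone leaves no residual degree of freedom, and the number of arrays limits the precision. Pathway and marker lists were written down with earlier results of these data known, as were the members. Named are all members, pathway genes 2-fold apart or detected on 1 array only, the 2 with the highest signal of each list (1 for lists of 3 or fewer), up to 3 markers per list, and further genes picked once their values were known: those at 1.5-fold, the weaker probes of Tle1 and Cir1, the spots around Dll4, and all other pathway and marker genes beyond that rule. Alternatives were another percentile, quantile normalization, normexp correction (limma 3.58.1, offset 50), the deposited table, kept outliers, the mean of probes, other detection rules, and leaving out spots beside a spot 2-fold apart in the same direction. Values of 2 pathway genes that the rule names or the lists hold are not reported here. Python 3.11.15 and R 4.3.3 were used.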

Additional observations from a re-analysis of the deposited data

How the results depend on the processing

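The direction of 8 of the 9 measured members was the same under all alternatives that gave a value. The exception was Notch2, at -0.0045 log2 with normexp correction. The median difference of the measured members was 0.51 log2 with normexp correction and between 0.31 and 0.39 log2 under the others. Members detected on both arrays numbered 10 with the less strict flag, 9 above the 95th percentile of negative controls, and 8 when every probe had to be detected. Leaving out spots beside a 2-fold spot, applied to this count after the data were seen, left 0 members 2-fold apart by value or bound, in place of 1. Pathway genes 2-fold apart numbered 2 with the less strict flag and 2 with no detection filter. All genes 2-fold apart numbered 204 with normexp correction, 974 with the less strict flag and 1470 with no filter, in place of 356. Of these, 59.3% were higher in clone 2, or 48.8% with the percentile of probes detected on both arrays and 70.1% with normexp correction. The causes were not tested. Signal over background limits Dll4 in clone 2 (1.21 times the negative control median) and Notch1 (5.80 and 7.52 times). No paired analysis was possible because the clones share only replicate number 1, and leaving out a replicate was not possible with 1 array per clone.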

Other observations

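Single spots seen on 1 array only often touched a spot 2-fold higher on the same array. Of 148 genes detected in clone 1 only by a probe printed once, with a bound of at least 2-fold, 98 (66.2%) touched a spot 2-fold higher in clone 1, and 56 (37.8%) touched 2 or more. Among all spots detected on either array, 10.99% touched such a spot and 2.16% touched 2 or more. For clone 2, 72 of 126 such genes (57.1%) touched a spot 2-fold higher in clone 2, beside 13.0% of all spots, and 26 (20.6%) touched 2 or more. Dll4 is among the genes of clone 1. The genes were picked by their difference between the arrays, while the spots beside them were not, and causes were not tested.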
